A study of Mus musculus with 12 samples.

Results

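Cytosolic ribosomal proteins are the protein subunits of the ribosome that translates nuclear mRNAs, and their genes were examined in mouse liver after a ketogenic diet. The members were chosen by name: protein-coding genes of the count table whose symbol starts with Rpl or Rps and a digit, the stalk genes Rplp0, Rplp1 and Rplp2, and Rpsa, without the Rps6k kinases. The rule found 91 of the 27105 genes in the table and used no measured value. By symbol, 31 code for small-subunit proteins, 46 for large-subunit proteins, 7 are paralogs of those and 6 are named as copies of them (Rpl10-ps3, Rpl36a-ps1, Rpl9-ps6, Rps18-ps5, Rps27rt and Rps23rg1). The remaining gene, Rps19bp1, codes for a binding partner of Rps19 and not for a ribosomal protein. A symbol that names a copy does not show that the gene codes for a ribosomal protein. This was not examined, for Rps23rg1 in particular. Other genes also give ribosomal subunits, among them the ubiquitin-like fusion gene Fau and the scaffold gene Rack1, but their symbols lie outside the rule.

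RNA was sequenced from 6 livers of mice fed a ketogenic diet, which is low in carbohydrate and high in fat, and from 6 livers of mice fed a control diet. The series design describes each set as biological replicates, and no genotype, drug or other treatment is named for either group. The labels used here give no strain, age, sex, diet composition or time on the diet. Libraries are called by diet and replicate number (ketogenic 4, control 1).

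A ribosome carries its proteins in near-equal numbers, and in mammals their genes are widely transcribed and account for many of the most abundant mRNAs of a cell. Most of these mRNAs begin with a 5′ terminal oligopyrimidine (TOP) tract, a C followed by a run of C or T. Through this tract the kinase complex mTORC1 and its effector Larp1 adjust how much of the mRNA is translated when insulin, amino acids or energy supply change. That control acts on translation and on mRNA stability, so mRNA levels need not follow protein output. In liver, fasting and feeding are known to shift ribosome production.

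The start of the transcript was looked at because TOP tracts mark this family. RefSeq start sites (GRCm38.p6), which are annotated and were not measured here, were matched for 67 members by symbol. The transcript strand was searched for a C followed by at least 4 bases that are each C or T. Such a run began at an annotated start in 14 of the 67 (20.9%), against 3.01% of 27025 genes, and began within 10 bases either side of a start in 41 (61.2%), against 34.4%. The following sequences run from 15 bases before the start to 15 bases from it on, with the run in capitals. They are shown because the results turn on these genes: Rps6, Rpl35 and Rpl28 carry the run at the start, Rps12 carries it further on, Rps3 has none near the start, and Rps27 and Rps27rt are a gene and its near-identical copy:
Rps6 (chr4:86857353-86857382, minus strand): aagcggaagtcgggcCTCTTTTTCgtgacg
Rpl35 (chr2:39005117-39005146, minus strand): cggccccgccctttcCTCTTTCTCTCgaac
Rpl28 (chr7:4792950-4792979, plus strand): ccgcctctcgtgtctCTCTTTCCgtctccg
Rps12 (chr10:23787195-23787224, minus strand): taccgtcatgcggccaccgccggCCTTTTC
Rps3 (chr7:99483695-99483724, minus strand): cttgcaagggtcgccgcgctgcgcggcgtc
Rps27 (chr3:90213634-90213663, minus strand): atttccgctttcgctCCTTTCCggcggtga
Rps27rt (chr9:114982725-114982754, minus strand): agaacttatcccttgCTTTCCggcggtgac

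The 12 libraries held 30.2 to 33.5 M (mega) counts. Albumin and the other hepatocyte markers (6 of 6 with counts) took 66775 to 89413 CPM (a gene's counts relative to the library's total, scaled with TMM factors) in ketogenic libraries, against 72789 to 108419 CPM in control libraries. Of 48 tested markers of hepatocytes and other liver cell types, 0 passed the edgeR test between the diets with 12 libraries (7 at an unadjusted p under 0.05, and 0 by DESeq2 or limma-voom). Without ketogenic 4, a library described next, 0 passed as well (8 at an unadjusted p under 0.05, 1 lower by DESeq2 and 0 by limma-voom). In that set the median log2 fold change of the 6 hepatocyte markers was -0.33 with 5 of them below 0, and 2 were lower and 1 was higher at an unadjusted p under 0.05. Of 5 endothelial markers, 3 were higher at an unadjusted p under 0.05 without ketogenic 4. At that threshold, 9.05% of all genes were higher and 7.67% lower with 12 libraries, and 10.5 and 9.97% without ketogenic 4. In bulk liver, fewer cells of a type and less RNA per cell cannot be told apart, and every value below is relative to the library's other RNA.

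Ketogenic 4 stood apart from the other 11 libraries in these genes. Its median correlation with the other ketogenic libraries over all genes was 0.951, against 0.972 to 0.984 for the other libraries within their own diet. Across all tested genes, its deviation from the mean of the other 11 libraries of both diets fell with transcript length (Spearman rho -0.577, a description across genes). The same value, each library against all the rest, lay between -0.329 and 0.372 in the other libraries. The summed level of 5 bile duct markers was 149 CPM in ketogenic 4, with at most 67.5 CPM in the other ketogenic libraries and at most 86.2 CPM in control libraries. Spp1 alone made up 127.5 CPM of that sum. Krt19, Krt7 and Epcam were also highest in ketogenic 4, but Sox9 was not, at 6.36 CPM against 6.50 to 13.7 CPM in control libraries. Neutrophil markers (4 genes) summed to 14.1 CPM in ketogenic 4, with at most 7.10 CPM in the other ketogenic libraries and at most 4.44 CPM in control libraries, and the defining marker Ly6g was at most 0.0959 CPM in any library. Stellate markers (6 genes) summed to 619.9 CPM in ketogenic 4, above the 444 CPM of the next ketogenic library and within the control range of 270.4 to 753 CPM. Of the ketogenic libraries, ketogenic 4 was the highest in each stellate marker except Reln, in which it was the lowest (74.6 CPM). What part length, cell types or other features of that library have in the values below was not tested, and the calls below are given for 12 libraries and for the 11 without it.

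The share of all counts that fell on the 91 genes shows the pattern in the whole set. The genes took 2.63% of counts in ketogenic 4 (95% Wilson interval 2.62 to 2.63%, counting error only) and 1.297, 1.38, 1.39, 1.39 and 1.27% in ketogenic 1, 2, 3, 5 and 6. Control 1 to 6 had 1.82, 1.52, 1.53, 1.29, 1.79 and 1.85%. The 5 other ketogenic libraries thus lay close together, 1 of them under the lowest control library, while control 4 lay among them and ketogenic 4 lay above all libraries. The means were 1.56 ± 0.525% on the ketogenic diet against 1.63 ± 0.223% on the control diet (SD, n = 6 each). Leaving ketogenic 4 out put the ketogenic mean at 1.34 ± 0.0547% (SD, n = 5), which is 0.823 times the control mean.

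**Figure D1:**
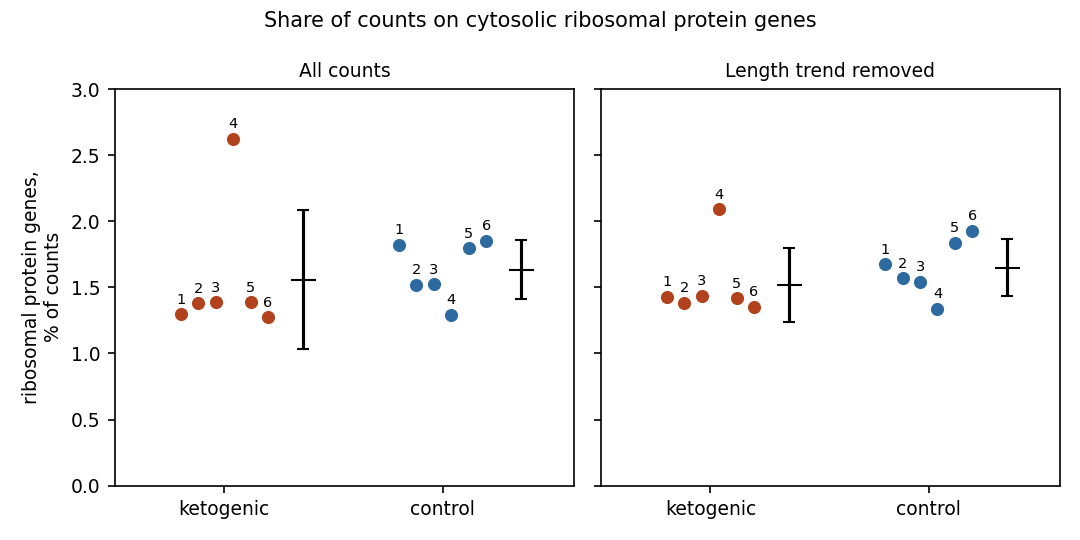
Share in percent for each library, with each diet's mean and SD (bars, n = 6 each). Numbers are replicates. The left panel gives the share of counts on the 91 genes. The right panel gives the share of the summed CPM of all tested genes on the 88 tested members. Ketogenic 4 is at 2.63% in the counts as deposited (left) and at 2.09% once the dependence on transcript length is removed (right), above every other library in both.

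Of the 91 genes, 88 had enough counts to be tested among 13995 genes. The 3 left out are Rpl3l, a paralog known from heart and skeletal muscle, and Rpl10l and Rpl39l, paralogs known from testis, each with 0 to 3 counts in any library. With all 12 libraries, 0 members were higher on the ketogenic diet, against 2.34% of all genes tested, and 1 member was lower, against 1.44% (edgeR, adjusted p under 0.05). The lower one is Rps27rt, and it was also the only member with an unadjusted p under 0.05, against 7.67% of all genes lower and 9.05% higher. DESeq2 and limma-voom gave 0 higher and 1 lower as well. The median log2 fold change, ketogenic over control, was -0.14 over the members and -0.0010 over all genes, and 71 of 88 members lay below 0, against 50.1% of all genes. With 12 libraries, 0 members had all 6 ketogenic libraries under all 6 control libraries, against 1.37% of all genes.

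Leaving out ketogenic 4, which was the highest of the 12 libraries in 77 of the 88 members, lowers the ketogenic mean of those genes by construction. Among the remaining 11 libraries, 22 of 88 members were lower on the ketogenic diet, against 2.24% of all 14118 genes tested. No member was higher, against 3.15% of all genes (0 also by DESeq2 and limma-voom, and 0 at an unadjusted p under 0.05, against 10.5% of all genes). The median log2 fold change was -0.36 over the members and -0.013 over all genes, and 86 members lay below 0, against 52.2% of all genes. An unadjusted p under 0.05 with a lower level was found for 65 members, against 9.97% of all genes. In 9 members (Rpl23, Rpl28, Rpl34, Rpl35, Rps7, Rps12, Rps16, Rps24 and Rps25) all 5 ketogenic libraries lay under all 6 control libraries, against 2.20% of all genes.

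The number 22 depends on which other libraries are kept. With 1 more library left out it was 5, 3, 1, 20 and 1 without ketogenic 1, 2, 3, 5 and 6, and 5, 13, 8, 44, 7 and 8 without control 1 to 6. Of the 22, 0 were called in all 11 of these fits, and a single member kept its call in 1 to 10 of them. With DESeq2 it was 50 (against 4.67% of all genes), and with scaling by library size only it was 5 (against 1.22%). After each library's dependence on transcript length was removed, 15 members were lower among the 11 libraries (against 2.78% of all genes), of which 12 are among the 22.

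**Figure D2:**
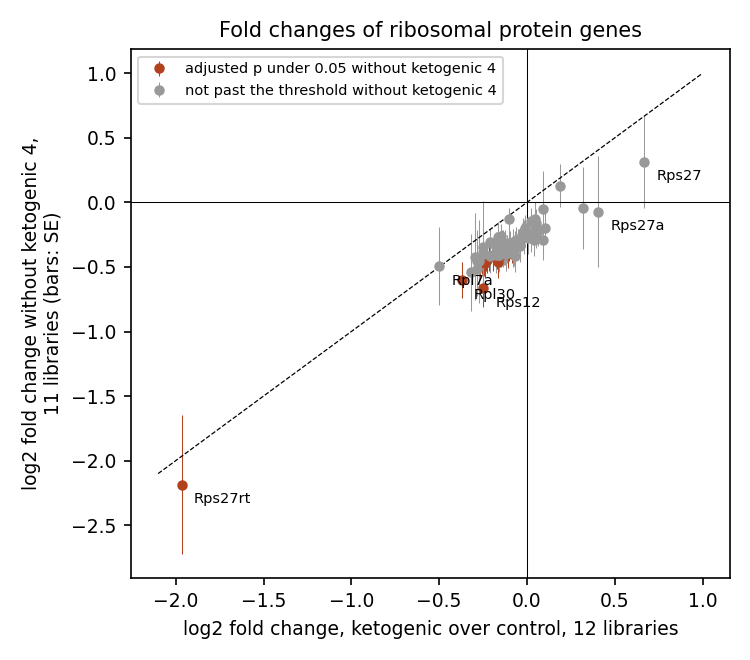
Log2 fold change, ketogenic over control, of the 88 tested members with all 12 libraries (x axis) and without ketogenic 4 (y axis, bars are standard errors); the dashed line marks equal values. Nearly all members lie under the dashed line and below 0 on the y axis, the 22 members past the threshold without ketogenic 4 are red, and Rps27rt lies far from the rest.

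Among the 31 small-subunit genes, 0 were called with 12 libraries and 11 were lower without ketogenic 4 (among them Rps3, Rps6, Rps7, Rps12, Rps14, Rps15, Rps16, Rps23, Rps24 and Rps25; these and the large-subunit genes below are named after their values were seen). Their median log2 fold change was -0.11 with 12 libraries and -0.36 without ketogenic 4, and 30 of the 31 were below 0 without it, the exception being Rps27.

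Rps6 is the small-subunit protein that the S6 kinases phosphorylate downstream of mTORC1. It had 537 CPM in ketogenic 4 and 262, 277 and 310.0 CPM (lowest, median and highest) in the other 5 ketogenic libraries, against 309, 369 and 479.6 CPM in control libraries. Only the highest of those 5 ketogenic libraries reached the control range, and it did so at its lower edge. The log2 fold change was -0.25 ± 0.18 (SE, edgeR adjusted p = 0.573) with 12 libraries and -0.45 ± 0.12 (adjusted p = 0.0417) without ketogenic 4, and the call was kept in 2 of the 11 fits that left out 1 more library.

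Rps12 is a small-subunit protein with the smallest adjusted p of the members without ketogenic 4. Its level was 202 CPM in ketogenic 4 and 58.7, 69.5 and 72.2 CPM in the other ketogenic libraries, against 82.4, 101 and 139 CPM in control libraries, so those 5 ketogenic libraries did not overlap the control libraries. Rps12 changed by -0.25 ± 0.29 on the log2 scale with 12 libraries (edgeR adjusted p = 0.757) and by -0.66 ± 0.15 without ketogenic 4 (adjusted p = 0.0195), and it kept its call in 10 of the 11 fits that left out 1 more library.

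Rps16 had 309.9 CPM in ketogenic 4 and 147, 156 and 166 CPM in the other ketogenic libraries, against 183, 207 and 259 CPM in control libraries. Again the 5 ketogenic libraries lay under the lowest control library. The log2 fold change was -0.23 ± 0.18 with 12 libraries (edgeR adjusted p = 0.608) and -0.44 ± 0.10 without ketogenic 4 (adjusted p = 0.0217), kept in 8 of the 11 further fits.

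Rps3 lines the channel through which mRNA enters the small subunit. It was at 552 CPM in ketogenic 4 and at 244, 262 and 303 CPM in the other ketogenic libraries, against 296, 359.7 and 426 CPM in control libraries. Its log2 fold change was -0.17 ± 0.19 with 12 libraries (edgeR adjusted p = 0.744) and -0.40 ± 0.11 without ketogenic 4 (adjusted p = 0.0474), close to the threshold and kept in 2 of the 11 further fits. Rpsa, which sits near the mRNA exit and was first described as a laminin receptor, had 728 CPM in ketogenic 4 and 333, 377 and 477 CPM in the other ketogenic libraries, against 385, 514 and 641 CPM in control libraries. With a log2 fold change of -0.41 ± 0.13 without ketogenic 4 it did not pass (edgeR adjusted p = 0.0898).

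Rps19, the gene most often mutated in human Diamond-Blackfan anaemia, had 292 CPM in ketogenic 4 and 114, 129 and 134 CPM in the other ketogenic libraries, against 130.0, 144 and 193 CPM in control libraries. The 2 diets overlapped at their edge, and the log2 fold change was 0.0080 ± 0.21 with 12 libraries and -0.28 ± 0.11 without ketogenic 4 (edgeR adjusted p = 0.993 and 0.160). Rps4x and Rps28 likewise did not pass, with log2 fold changes of -0.23 and -0.24 without ketogenic 4.

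Rps27a, which makes a fusion of ubiquitin with a small-subunit protein, varied widely within each diet. It ranged from 51.4 to 159 CPM in the other ketogenic libraries and was 316 CPM in ketogenic 4, against 60.9 to 222 CPM in control libraries. Its log2 fold changes of 0.41 ± 0.48 and -0.071 ± 0.43, with and without ketogenic 4, are smaller than their standard errors (edgeR adjusted p = 0.762 and 0.951).

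The 46 large-subunit genes gave 0 calls with 12 libraries and 10 lower without ketogenic 4 (Rpl9, Rpl10a, Rpl12, Rpl23a, Rpl26, Rpl27a, Rpl28, Rpl30, Rpl32 and Rpl35). Their median log2 fold change was -0.15 with 12 libraries and -0.37 without ketogenic 4, and all 46 were below 0 in that second set.

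Rpl30 had the largest fall among called large-subunit genes. It was at 137 CPM in ketogenic 4 and at 49.7, 65.6 and 90.1 CPM in the other ketogenic libraries, against 83.9, 106 and 116 CPM in control libraries. The log2 fold change was -0.37 ± 0.20 with 12 libraries (edgeR adjusted p = 0.403) and -0.60 ± 0.14 without ketogenic 4 (adjusted p = 0.0244), kept in 9 of the 11 further fits. Rpl30 was less tied to the other members than most, with a correlation of 0.727 to their mean over the 12 libraries.

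Rpl28 had 334 CPM in ketogenic 4 and 163, 175 and 201 CPM in the other ketogenic libraries, against 202, 227 and 282 CPM in control libraries. Rpl35 had 151 CPM in ketogenic 4 and 57.1, 64.0 and 68.0 CPM in the other ketogenic libraries, against 70.8, 86.5 and 112 CPM in control libraries. In both genes the 5 other ketogenic libraries lay under every control library, with log2 fold changes of -0.43 ± 0.10 for Rpl28 and -0.46 ± 0.12 for Rpl35 (edgeR adjusted p = 0.0283 and 0.0436). With 12 libraries these were -0.23 and -0.16 (edgeR adjusted p = 0.569 and 0.804). Rpl12, which lies at the base of the stalk, had a log2 fold change of -0.24 ± 0.19 with 12 libraries (edgeR adjusted p = 0.613) and -0.47 ± 0.11 without ketogenic 4 (adjusted p = 0.0295). The call was kept in 6 of the 11 further fits for Rpl28, 3 for Rpl35 and 3 for Rpl12.

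The stalk proteins Rplp0, Rplp1 and Rplp2 recruit and activate the elongation factors. Rplp1 had 722 CPM in ketogenic 4 and 270.1, 303 and 372 CPM in the other ketogenic libraries, against 328, 407 and 533 CPM in control libraries. Rplp0 had 679 CPM in ketogenic 4 and 388, 407 and 491 CPM in the other ketogenic libraries, against 435, 554 and 701 CPM in control libraries. None of the 3 passed the test: without ketogenic 4 the log2 fold changes were -0.39 ± 0.12 for Rplp0, -0.40 ± 0.13 for Rplp1 and -0.20 ± 0.12 for Rplp2 (edgeR adjusted p = 0.0825, 0.0857 and 0.377).

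Rpl5 and Rpl11 carry the smallest ribosomal RNA into the large subunit and, when not built in, bind the p53 regulator Mdm2. Rpl5 had 449 CPM in ketogenic 4 and 230.2, 244 and 273 CPM in the other ketogenic libraries, against 272, 299 and 367 CPM in control libraries. For Rpl11 the values were 389 CPM in ketogenic 4 and 184, 194 and 221 CPM in the other ketogenic libraries, against 193, 217 and 269 CPM in control libraries. Neither passed the test without ketogenic 4, with log2 fold changes of -0.33 ± 0.10 for Rpl5 and -0.16 ± 0.11 for Rpl11 (edgeR adjusted p = 0.0657 and 0.445).

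Other large-subunit genes chosen for their roles gave similar values below the threshold. Rpl3, which reaches toward the peptidyl transferase centre, changed by -0.27 ± 0.11 without ketogenic 4, Rpl10, which joins late in assembly, by -0.40 ± 0.12, and Rpl41, the smallest ribosomal protein, by -0.42 ± 0.12 (edgeR adjusted p = 0.201, 0.0689 and 0.0627). Rpl7a had the largest negative value of the subunit genes with 12 libraries, -0.50 ± 0.26 (adjusted p = 0.371), and was the member least raised in ketogenic 4, at 53.3 CPM, with 41.3, 47.4 and 87.1 CPM in the other ketogenic libraries, against 44.1, 75.7 and 121 CPM in control libraries.

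**Figure D3:**
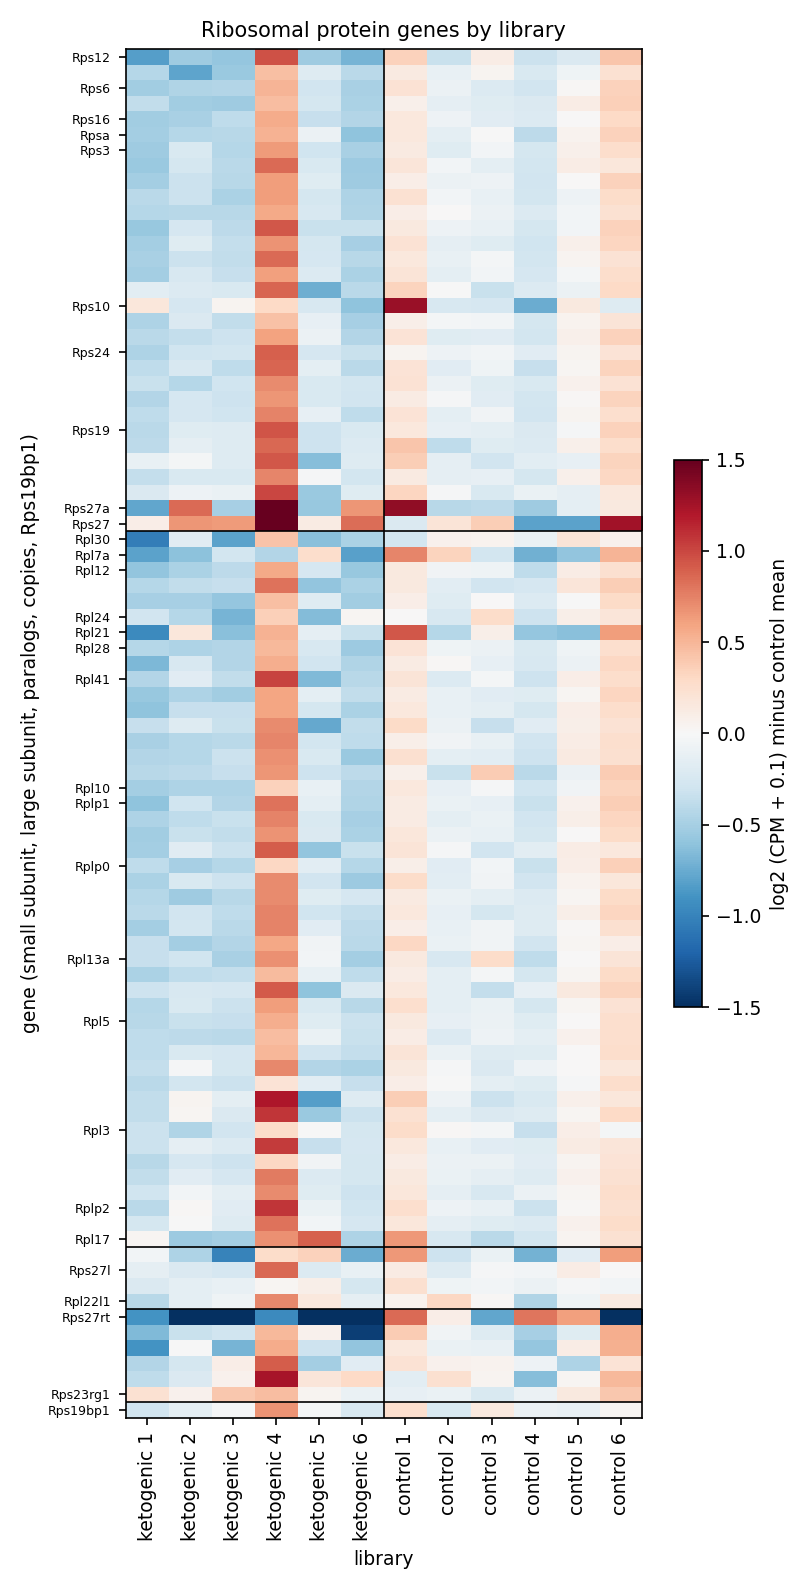
Each tested member (rows, in blocks of small-subunit, large-subunit, paralog and copied genes, with Rps19bp1 last; some rows are labelled) in each library (columns), as log2 (CPM + 0.1) minus the control mean; red is higher and blue lower. Ketogenic 4 is red in nearly every row, the other ketogenic libraries are mostly blue, and Rps27rt, Rps27, Rps27a, Rpl7a, Rpl21 and Rpl17 show patterns of their own.

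The members moved together over the libraries. The correlation of a member's log2 CPM with the mean of the other members had a median of 0.943 over the 12 libraries, with 58 of 88 over 0.9 and 5 under 0.5. Without ketogenic 4 the median was 0.919, with 50 over 0.9 and 7 under 0.5. These values describe libraries that share depth and composition, and carry no test. Among the most alike were Rpl8 (0.995) and Rps15 (0.988), and the least alike were Rps27rt (0.269), Rps23rg1 (0.358), Rpl7a (0.397), Rps27 (0.424) and Rps10 (0.478).

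With 12 libraries, the largest fold changes of the set were those of Rps27rt and Rps27. Without ketogenic 4, Rps27rt still had the largest, and that of Rps27 was smaller in size than the members' median of -0.36. Rps27 (chromosome 3, 90119829 to 90120958, minus strand, as the table gives it, with no build assigned) codes for a zinc-binding small-subunit protein, and Rps27rt (chromosome 9, 114811434 to 114811807, minus strand) is a retained copy of it. In the GENCODE M21 annotation of GRCm38, their coding sequences are 255 bases long and differ at 0 positions. Printed once for both, to show why reads from it cannot be assigned to either gene, the sequence is:
Rps27 and Rps27rt: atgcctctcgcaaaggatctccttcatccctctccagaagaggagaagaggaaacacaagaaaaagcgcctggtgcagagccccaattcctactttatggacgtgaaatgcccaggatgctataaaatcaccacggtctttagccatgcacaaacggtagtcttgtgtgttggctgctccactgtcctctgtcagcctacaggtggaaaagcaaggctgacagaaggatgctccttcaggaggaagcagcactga

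Rps27rt had 24.5, 12.5, 8.64, 23.5, 5.19 and 8.27 CPM in ketogenic 1 to 6, against 82.8, 48.8, 26.6, 79.7, 70.1 and 15.2 CPM in control 1 to 6. Ketogenic 1 and ketogenic 4 lay above control 6, so the diets overlapped. The log2 fold change was -1.97 ± 0.48 (edgeR adjusted p = 0.0391) with 12 libraries and -2.18 ± 0.54 (adjusted p = 0.0449) without ketogenic 4. It lost the call in 8 of the 12 fits that left out 1 library, with edgeR adjusted p from 0.0621 to 0.0846 in those. Without ketogenic 4 it kept the call in 2 of the 11 fits that left out 1 more, and lost it with the replicate block and with the length trend removed. With 12 libraries it also lost the call with scaling by library size only (adjusted p = 0.0503) and with no filter on low counts (adjusted p = 0.129).

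Rps27 ran the other way without passing the test, at 0.67 ± 0.39 with 12 libraries and 0.31 ± 0.36 without ketogenic 4 (edgeR adjusted p = 0.442 and 0.694). It had 59.8, 88.4, 86.8, 211, 60.5 and 99.4 CPM in ketogenic 1 to 6, against 47.9, 63.9, 72.1, 31.9, 31.9 and 133 CPM in control 1 to 6. Rps27rt took 29.0, 12.4, 9.05, 10.04, 7.90 and 7.69% of the 2 genes' summed CPM in ketogenic 1 to 6, against 63.3, 43.3, 26.9, 71.4, 68.7 and 10.2% in control 1 to 6. Control 6 lay among the ketogenic libraries in this split. The sum itself averaged 115 ± 60.3 CPM on the ketogenic diet (90.8 ± 16.5 CPM without ketogenic 4), against 117 ± 18.95 CPM on the control diet (SD, n = 6, 5 and 6), and the diets overlapped. No source used here says how reads were divided between the 2 genes, so the fall of Rps27rt and the value of Rps27 are uncertain as changes of either gene.

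Rps27l is a paralog of Rps27 that p53 activates. It had 244 CPM in ketogenic 4 and 113, 116 and 125 CPM in the other ketogenic libraries, against 118, 134 and 147 CPM in control libraries. Its log2 fold change without ketogenic 4 was -0.19 ± 0.08 (edgeR adjusted p = 0.185). Rpl22l1, which Rpl22 is known to hold down in mouse, made up 12.7 to 16.7% of the summed CPM of the pair in ketogenic libraries, against 11.01 to 17.8% in control libraries. Neither gene of that pair passed the test, with log2 fold changes without ketogenic 4 of -0.20 ± 0.10 for Rpl22 and -0.13 ± 0.13 for Rpl22l1. The other tested paralogs, Rpl7l1 and Rpl36al, and the other 5 copies also gave no call in either set of libraries.

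Shared sequence is common in the set. Cut into stretches of 50 bases, the annotated transcripts of the 91 members shared a median of 51.3% of their stretches with another annotated gene, 46 members shared the larger part of theirs and 4 shared none. The 4 with the lowest levels that a gene of the same strand overlaps were Rpl24, Rps10, Rpl36al and Rpl13a, which share 69.4, 50.8, 23.4 and 57.4% of their stretches with Gm28037, RPS10-NUDT3, Gm49383 and Gm45713. Their control means were 1.05, 1.40, 0.939 and 14.8 CPM per kb of transcript, against a median of 192 CPM per kb over the tested members. Rpl24 and Rps10 are core subunit genes, and their values here are those of the table's rows for these genes.

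**Figure D4:**
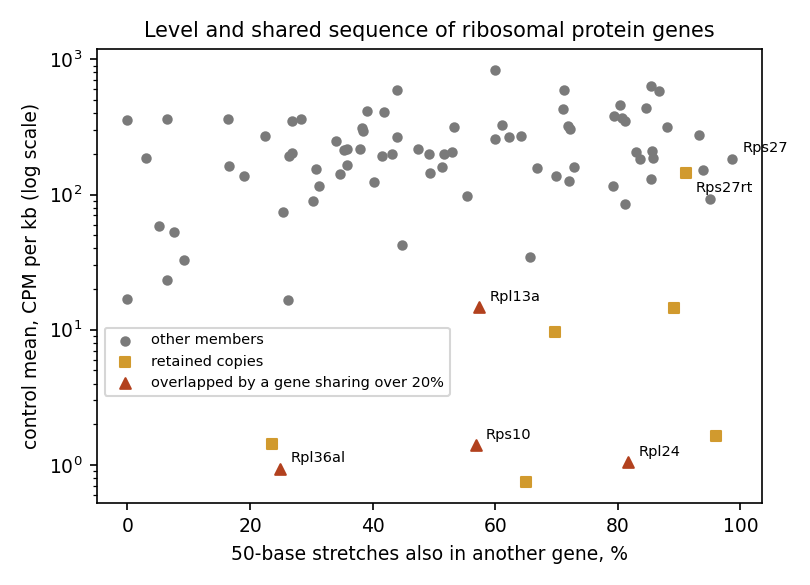
Control mean of each tested member in CPM per kb of transcript (log scale) against the percentage of its stretches of 50 bases found in another annotated gene. Rpl24, Rps10, Rpl36al and Rpl13a (triangles) lie between 0.939 and 14.8 CPM per kb, far under the median of 192, as do the copied genes (squares) other than Rps27rt.

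The rise of ketogenic 4 was not equal over the members. The ratio of ketogenic 4 to the median of the other ketogenic libraries had a median of 2.05 and ran from 1.12 for Rpl7a to 5.06 for Rps27a. On the log2 scale its median deviation was 1.03 over the members, 0.91 over 72 respiratory chain subunit genes, 0.67 over 77 mitochondrial ribosomal protein genes, 0.61 over 33 proteasome genes and 0.0016 over all genes. Within the members, the deviation fell with transcript length (Spearman rho -0.481) and with coding length (rho -0.610), as a description over 88 genes of 1 library. The 44 shorter members, up to 855 bases, had a median ratio of 2.15 and the 44 longer members 1.95. Removal of the length trend over all genes left a median deviation of 0.43 on the log2 scale over the members. Ketogenic 5 sloped the other way among the members, at 0.392 with transcript length and 0.562 with coding length.

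**Figure D5:**
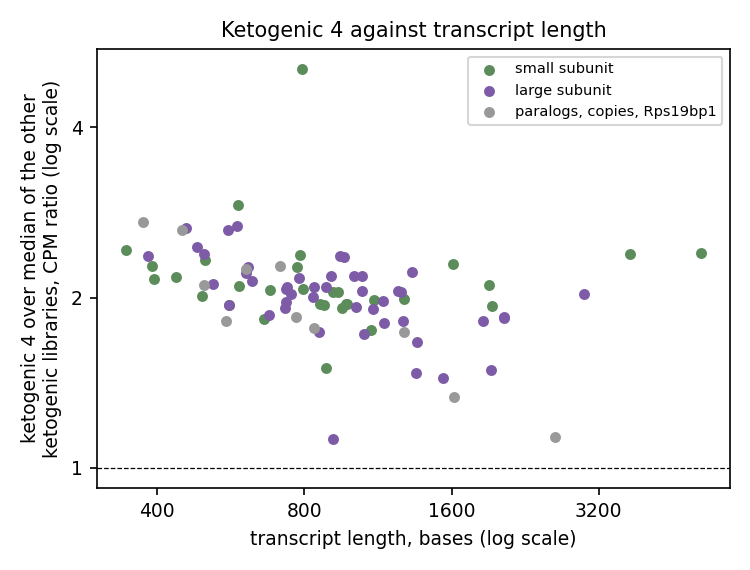
Ratio of CPM in ketogenic 4 to the median CPM of the other 5 ketogenic libraries (log scale) against annotated transcript length (log scale) for the 88 tested members; the dashed line marks a ratio of 1. The ratio runs from 1.12 to 5.06 and is above 1 in all members, and shorter transcripts tend to lie higher.

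With the length trend removed, the share was taken over the 88 tested members and the summed CPM of all tested genes. It was 2.09% in ketogenic 4 and 1.35 to 1.44% in the other ketogenic libraries, against 1.34 to 1.93% in control libraries. The means were 1.52 ± 0.282% on the ketogenic diet (1.40 ± 0.0351% without ketogenic 4), against 1.65 ± 0.214% on the control diet.

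Members with and without a pyrimidine run near the annotated start had close median fold changes. Without ketogenic 4, the 38 tested members with it had a median log2 fold change of -0.35 and 11 were lower, whereas the 26 matched and tested members without it had a median of -0.37 and 6 were lower. No difference between those groups was tested. The starts are annotated and not measured, and 34.4% of all genes have such a run within 10 bases of one. The split therefore cannot tell TOP mRNAs from other mRNAs.

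Genes that work with the ribosome were looked at in the same fits. Of 3 subunit genes outside the naming rule, 0 were called in either set of libraries, although without ketogenic 4 DESeq2 called 2 lower. Rack1 had a log2 fold change of -0.38 ± 0.12 without ketogenic 4 and Fau one of -0.39 ± 0.11 (edgeR adjusted p = 0.0775 and 0.0509). Of 39 elongation factors and other translation genes known for TOP mRNAs, 0 were called with 12 libraries. In that set 6 were lower at an unadjusted p under 0.05 (against 7.67% of all genes), 1 was lower by DESeq2 and 0 by limma-voom. Without ketogenic 4, 3 were lower (against 2.24% of all genes), 16 were lower at an unadjusted p under 0.05 (against 9.97%), and 4 were lower by DESeq2 and 3 by limma-voom. The 3 are all named after their values were seen. They are Npm1, a nucleolar chaperone of ribosome assembly (-0.42 ± 0.09), Tpt1 (-0.36 ± 0.10) and the initiation factor subunit Eif3h (-0.32 ± 0.08), with edgeR adjusted p of 0.0202, 0.0475 and 0.0373. The median log2 fold change of the 39 was -0.075 with 12 libraries and -0.19 without ketogenic 4. Eef2, which moves the ribosome along the mRNA, was lower in ketogenic 4 than in the other ketogenic libraries, at 1389 CPM and 1685 to 1914 CPM. Control libraries had 1834 to 2687 CPM, and Eef2 did not pass (edgeR adjusted p = 0.192 and 0.208 with and without ketogenic 4).

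The genes that build ribosomes gave 1 call in each of 2 lists without ketogenic 4 and 0 with 12 libraries. Over all genes, 2.34% were called higher and 1.44% lower with 12 libraries, and 3.15 and 2.24% without ketogenic 4. At an unadjusted p under 0.05, 9.05% of all genes were higher and 7.67% lower with 12 libraries, and 10.5 and 9.97% without ketogenic 4. Of 51 assembly factors, 0 were called with 12 libraries (3 at an unadjusted p under 0.05, and 0 by DESeq2 or limma-voom) and 1 was higher without ketogenic 4, Imp4, a part of the early small-subunit processing complex (0.29 ± 0.07, edgeR adjusted p = 0.0215), with 5 lower and 2 higher at an unadjusted p under 0.05 and 1 higher by DESeq2 and by limma-voom. Their median log2 fold change was -0.032 and -0.074 with and without ketogenic 4. Of 20 genes of RNA polymerase I and its factors, which transcribe ribosomal RNA, 0 were called with 12 libraries (2 lower at an unadjusted p under 0.05, 1 lower by DESeq2) and 1 was lower without ketogenic 4 (4 lower at an unadjusted p under 0.05, 1 lower by DESeq2 and by limma-voom). That gene, the subunit gene Polr1c, had 24.9 CPM in ketogenic 4 and 14.1, 17.6 and 19.9 CPM in the other ketogenic libraries, against 18.9, 22.5 and 26.04 CPM in control libraries.

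Of 26 genes of mTORC1 signalling and TOP mRNA control, 1 was higher in both sets of libraries and 0 were lower. Over all genes, 2.34% were higher with 12 libraries and 3.15% without ketogenic 4, so this count was near that share. At an unadjusted p under 0.05, 1 was higher and 1 lower with 12 libraries (against 9.05 and 7.67% of all genes). Without ketogenic 4, 3 were higher and 1 lower (against 10.5 and 9.97%). DESeq2 called 1 higher with 12 libraries and 3 without ketogenic 4, and limma-voom 1 in each set. Sesn1, a sestrin that restrains mTORC1 when amino acids are low, had 17.5 to 20.5 CPM in all 6 ketogenic libraries, with 19.99 CPM in ketogenic 4, against 8.98, 12.5 and 14.8 CPM (lowest, median and highest) in control libraries. The diets did not overlap, and the log2 fold change was 0.66 ± 0.12 with 12 libraries and 0.65 ± 0.12 without ketogenic 4 (edgeR adjusted p = 0.00550 and 0.00641). Mtor itself had a log2 fold change of 0.44 ± 0.22 with 12 libraries, and Rps6kb1, which codes for an S6 kinase, one of -0.26 ± 0.09, and neither passed in either set.

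Mitochondrial ribosomal protein genes, which code for the ribosome inside mitochondria, were counted beside them. Of 77, 4 were higher and 0 lower with 12 libraries, and 3 were higher and 0 lower without ketogenic 4, against 2.34 and 3.15% of all genes higher, so the count without ketogenic 4 was near the share over all genes. At an unadjusted p under 0.05, 14 were higher and 0 lower with 12 libraries, against 9.05% of all genes higher and 7.67% lower. Without ketogenic 4, 13 were higher and 2 lower at that threshold, against 10.5% of all genes higher and 9.97% lower. Mrpl45 had 45.0 CPM in ketogenic 4 and 33.3, 34.1 and 37.5 CPM in the other ketogenic libraries, against 24.0, 27.4 and 30.8 CPM in control libraries. All 6 ketogenic libraries lay above the control libraries, with log2 fold changes of 0.43 ± 0.10 and 0.36 ± 0.08 with and without ketogenic 4 (edgeR adjusted p = 0.0317 and 0.0246). Mrpl49 and Mrps5 were called in both sets of libraries, and Mrps27 with 12 libraries only (edgeR adjusted p = 0.0434, and 0.0515 without ketogenic 4). The median log2 fold change of the 77 was 0.15 with 12 libraries and 0.015 without ketogenic 4. No test was made of the difference between cytosolic and mitochondrial ribosomal protein genes.

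Of the other abundant complexes, respiratory chain subunits (72 genes) gave 0 calls with 12 libraries (4 higher at an unadjusted p under 0.05, 1 higher by DESeq2) and 1 lower without ketogenic 4, Ndufa6, at -0.39 ± 0.09 (edgeR adjusted p = 0.0200). Without ketogenic 4, 8 were lower and 3 higher at an unadjusted p under 0.05, 3 were lower and 2 higher by DESeq2, and 2 were lower and 0 higher by limma-voom. Proteasome subunits (33 genes) gave 0 calls in either set by edgeR, DESeq2 or limma-voom (6 and 4 higher at an unadjusted p under 0.05 with and without ketogenic 4). Their median log2 fold changes with and without ketogenic 4 were 0.12 and -0.11 for the respiratory chain and 0.19 and 0.08 for the proteasome. Over all genes, 2.24% were called lower without ketogenic 4. At an unadjusted p under 0.05, 9.05% of all genes were higher and 7.67% lower with 12 libraries, and 10.5 and 9.97% without ketogenic 4.

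Outside the family, the genes whose log2 CPM ran most like the members' mean over the 12 libraries, among 7994 genes with at least 10 CPM on average, were Eef1b2 (Pearson r 0.980), Fau (0.976), Eif3f (0.971), Psenen (0.970), Spag7 (0.965), Srp9 (0.964), Pfdn5 (0.958) and Naca (0.958). Eef1b2 is the exchange factor that reloads elongation factor eEF1A, Naca binds nascent chains at the ribosome, Srp9 is part of the signal recognition particle, and Pfdn5 is a subunit of the chaperone prefoldin. Without ketogenic 4 the 4 most alike were Eef1b2 (0.958), Tmem258 (0.9497), Eif3f (0.949) and Fau (0.948). Of the 8 named first, only Pfdn5 passed the test without ketogenic 4, at -0.32 ± 0.08 (edgeR adjusted p = 0.0411), and none passed with 12 libraries.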

How the data were processed

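Total RNA of 12 mouse livers was made into libraries with a NEBNext Ultra kit, per the labels. The authors deposited raw counts per gene in 1 table, with no normalization. The submitters' processing notes name HISAT2 2.1.0, StringTie 1.3.4d, Cufflinks and fastp 0.19.3, with no role. No source used here names the counting program, its handling of reads that fit several genes, the strand setting or the genome build, so values of copies and of overlapping genes are uncertain.

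Genes were filtered with filterByExpr by diet, normalized by TMM and fitted in edgeR 4.0.16 (R 4.3.3) by quasi-likelihood, in its robust form, with diet as the only term. A call is a Benjamini-Hochberg adjusted p under 0.05 over all genes tested. Standard errors were taken from the F statistic. CPM was computed with TMM-scaled library sizes. Sums and medians over the members carry no test. The same fit was repeated without ketogenic 4 (11 libraries). That, and the alternatives on those libraries, were added after seeing the data.

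Alternatives were DESeq2 1.42.0, limma-voom 3.58.1, other scalings, other filters, an adjusted p under 0.01, the replicate number as a block, each library left out, and removal of the dependence on transcript length in each library (a spline with 4 degrees of freedom). Lengths came from GENCODE M21 by gene ID, for 13972 genes (99.8% of those tested). Each gene was given its longest transcript marked principal by APPRIS, otherwise its longest transcript. This gave 5179 bases for Rps15a and 3706 bases for Rps20. Which transcripts the livers used was not examined, so lengths may be too long for some genes. The coordinates of GENCODE M21 differ from the deposited table's. The steps were tested on simulated data.

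Members, lists and tests were chosen with earlier results of these data known. Genes named were those called with 12 libraries, the 5 highest and 5 lowest fold changes, genes with set roles, paralog pairs, up to 3 genes of each companion list with the smallest p, and the 8 genes most like the members. Genes called without ketogenic 4 were added. Some genes that these rules name are not reported here. Libraries held 30.2 to 33.5 M (mega) counts. No source used here mentions molecular identifiers, so intervals cover counting error only.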

Additional observations from a re-analysis of the deposited data

Results flagged for a closer look

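Among the genes named in each diet, and in the members' share of counts, the highest or lowest of the 6 libraries was compared with the other 5 by Dixon's ratio of the gap to the whole range. Chance alone sets about 1 group in 20 apart, and 66 groups were looked at. The members move together over the libraries, so these groups are not independent and the number set apart is no measure of chance. In 24 of them 1 library stood apart, and in 22 of these it was ketogenic 4, always on the high side. Over all 88 tested members, ketogenic 4 stood apart in 70, no other ketogenic library did in any, and a control library did in 3.

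The members took 2.63% of counts in ketogenic 4, with 1.27 to 1.39% in the other ketogenic libraries. In the small subunit, ketogenic 4 stood apart with 537 CPM for Rps6, 552 CPM for Rps3, 485 CPM for Rps4x, 292 CPM for Rps19, 211 CPM for Rps27 and 79.3 CPM for Rps28, and Rpsa had 728 CPM. In the large subunit it had 449 CPM for Rpl5, 507 CPM for Rpl7, 389 CPM for Rpl11, 194 CPM for Rpl22, 129 CPM for Rpl36a, 185 CPM for Rpl39 and 692 CPM for Rpl41. Rpl13a had 24.6 CPM, and the stalk genes Rplp0, Rplp1 and Rplp2 had 679, 722 and 310.5 CPM. The other genes in which ketogenic 4 stood apart were the paralog Rps27l with 244 CPM, the copy Rpl36a-ps1 with 0.895 CPM and the binding partner gene Rps19bp1 with 22.4 CPM. The deviation of ketogenic 4 from the mean of all other libraries fell with transcript length over all genes (rho -0.577). The bile duct and neutrophil marker sums of ketogenic 4 were the highest of the 12 libraries. The part of length or of these cell types was not tested.

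Control 1 stood apart in Rps27a, with 222 CPM against 60.9 to 97.9 CPM in the other control libraries, and in Rpl7l1, with 101 CPM against 80.4 to 84.1 CPM.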

How the results depend on the processing

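With 12 libraries, 0 members were higher under every alternative. The 1 lower member was lost (0 lower) at an adjusted p under 0.01, with scaling by library size only and with no filter on low counts, and 0 to 22 were lower with 1 library left out, the 22 being without ketogenic 4. The members' median log2 fold change stayed below 0 under every alternative, from -0.22 with the length trend removed to -0.07 by library size only. With 1 library left out it ran from -0.36 to -0.08, and the ketogenic minus control difference in share ran from -0.29 to -0.02 percentage points.

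Without ketogenic 4, where 22 members were lower, 50 were lower with DESeq2, 13 with no filter on low counts, 8 with the replicate block, 5 with the replicate block and the length trend removed, 5 with scaling by library size only, and 0 at an adjusted p under 0.01. With 1 more library left out, 1 to 44 were lower, and the median ran from -0.40 to -0.30.

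Over all genes with 12 libraries, 328 were higher and 201 lower. DESeq2 gave 588 and 440, an adjusted p under 0.01 gave 140 and 57, and the replicate block 175 and 93; 333 were lower with the length trend removed and 127 by library size only. With 1 library left out, 213 to 445 were higher and 106 to 316 lower. Without ketogenic 4, where 445 were higher and 316 lower, DESeq2 gave 778 and 660, an adjusted p under 0.01 gave 167 and 74, and 172 were lower by library size only. With 1 more library left out, 265 to 522 were higher and 146 to 365 lower.

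For the 32 members named by rule, 721 of 735 fold changes under the alternatives kept their direction and their side of the threshold with 12 libraries, 11 lost the call and 3 gained it. Without ketogenic 4 these numbers were 643 of 703, 45 and 15, and 0 reversed in either set. With 12 libraries Rps27rt was the only named member called, and all 11 losses were its own. The other named members had no call to lose, so the 721 is no measure of how stable a call is. Whether replicate numbers pair the samples was not settled. Same-numbered libraries correlated above 0.1 in 3 of 6 pairs (range -0.29 to 0.34), and 4 of 12 libraries correlated best with their own number. Correlations over so few pairs cannot decide it. The cause of these differences between settings was not tested. Rpl36a-ps1, Rpl24, Rpl36al, Rpl10-ps3 and Rps10 had 145 to 446 counts in all over the 12 libraries, and their values are the least precise for counting error.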
